A study of Mus musculus with 4 samples.

Results

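The 5 casein genes Csn1s1, Csn1s2a, Csn1s2b, Csn2 and Csn3 and the whey and secretory genes Wap, Lalba and Glycam1 were followed through single-cell RNA libraries of mouse mammary hyperplasia and tumor. They are 8 of the 31781 genes with a count in any library, and were chosen by name as major milk protein genes. All 8 had a UMI (a unique molecular identifier, which counts 1 captured RNA molecule) in annotated cells of 3 libraries, and 7 did in the fourth, where Glycam1 had none. Every mouse was MMTV-PyMT, in which the mammary tumor virus promoter drives the polyoma middle T oncogene in mammary epithelium. The groups carried the genotype label PKA activated or wild type (WT), and PKA is the cAMP-dependent protein kinase. The labels do not say how PKA was activated. Hyperplastic glands (fat pads 3 and 4) were taken at 8 to 9 weeks, and tumors at 16 to 20 weeks per the sample labels or 22 weeks per the series design. Each of the 4 groups (hyperplasia and tumor of each genotype) had 1 library. The sources used here do not give the number of mice behind a library, their estrous stage or any pregnancy. The comparisons ask how milk gene transcripts differed with PKA activation at each stage and between stages within each genotype.

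Caseins assemble into the micelles that carry calcium and phosphate in milk. The alpha caseins are encoded by Csn1s1, Csn1s2a and Csn1s2b, beta casein by Csn2 and kappa casein, which coats the micelle surface and keeps it soluble, by Csn3. Lalba encodes alpha-lactalbumin, the partner of B4galt1 in the lactose synthase complex, Wap encodes whey acidic protein, the main whey protein of rodents, and Glycam1 encodes a mucin-like glycoprotein secreted into milk. In alveolar luminal cells prolactin acts through its receptor Prlr, the kinase Jak2 and the transcription factors Stat5a and Stat5b, together with glucocorticoid receptor and Elf5, to switch these genes on late in pregnancy and in lactation.

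The casein genes form 1 cluster on chromosome 5 (GRCm38, all coordinates from the gene annotation). Csn1s1 lies at chr5:87666208-87682578 on the plus strand and Csn2 at chr5:87692624-87699630 on the minus strand. They are followed by Csn1s2a at chr5:87774567-87788797, Csn1s2b at chr5:87808082-87824426 and Csn3 at chr5:87925579-87932665, all on the plus strand. Wap lies at chr11:6635482-6638637, Lalba at chr15:98480400-98482721 and Glycam1 at chr15:103562759-103565081, each on the minus strand. The annotated antisense gene 1700066N21Rik spans Csn3 on the other strand and had no row in the count files, and whether reads were assigned by strand is not stated. Promoters were taken from RefSeq on GRCm38.p6, which matched 6 of the 8 genes. The 150 bases before the RefSeq start, 5′ to 3′ on the gene's strand, are shown for the 2 caseins that differed most between PKA and WT libraries and for the 2 main whey genes, which differed less or the other way. Capitals mark TTCNNNGAA, the core motif bound by STAT5, which is its own reverse complement and so reads the same on both strands. The windows are chr5:87666058-87666207 (plus) for Csn1s1, chr5:87699426-87699575 (minus) for Csn2, chr11:6638650-6638799 (minus) for Wap and chr15:98482684-98482833 (minus) for Lalba.
Csn1s1: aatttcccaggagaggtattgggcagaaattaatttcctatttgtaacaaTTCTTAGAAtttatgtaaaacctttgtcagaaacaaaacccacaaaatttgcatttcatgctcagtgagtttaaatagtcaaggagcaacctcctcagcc
Csn2: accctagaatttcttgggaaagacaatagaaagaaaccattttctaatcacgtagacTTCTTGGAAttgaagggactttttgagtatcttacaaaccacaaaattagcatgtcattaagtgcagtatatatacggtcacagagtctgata
Wap: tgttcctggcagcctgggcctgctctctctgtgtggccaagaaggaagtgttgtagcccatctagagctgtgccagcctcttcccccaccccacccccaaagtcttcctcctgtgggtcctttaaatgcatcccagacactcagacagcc
Lalba: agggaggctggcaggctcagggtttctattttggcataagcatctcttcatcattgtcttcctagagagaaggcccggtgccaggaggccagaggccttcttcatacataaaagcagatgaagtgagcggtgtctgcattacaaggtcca
The motif began 100 bases before the start of Csn1s1 (TTCTTAGAA) and 93 bases before that of Csn2 (TTCTTGGAA). In the longer RefSeq window, from 250 bases before to 50 after the start, Glycam1 also held it 145 bases before the start (TTCCCAGAA) and Csn1s2a 21 bases after it (TTCTTAGAA). Wap and Lalba held no match in these windows, which says nothing about sites elsewhere. Of all 32851 RefSeq windows of 300 bases, 2726 (8.30%) held the motif, and 4.09% of the 150-base windows did. The cAMP response element TGACGTCA, searched on both strands, was found in none of the 6 member windows and in 1.79% of all windows of 300 bases. These matches describe sequence and do not show binding.

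The annotated cells numbered 2638 to 5181 per library and held 10648097 to 24499374 UMIs, with median depths of 2557 to 2637.5 UMIs per cell in hyperplasia and 4391 to 5890.5 in tumor. Glands were digested further, with trypsin and dispase, than tumors, and the FACS gate is not described. Levels are given as CPM, a gene's UMIs scaled to 1000000 UMIs of all annotated cells in a library or class. UMIs were counted at the 3′ end of transcripts and were not divided by length. Intervals are exact 95% intervals of counting error only, with PCR and differences between mice outside them. With 1 library per group no test was possible, so all differences are between libraries, and library and condition cannot be told apart. The luminal keratin Krt8 stood at 2333 to 3103 CPM in the 4 libraries. Of the non-epithelial markers, 6 fibroblast genes summed to 87.0 CPM for WT and 52.5 CPM for PKA hyperplasia, and to 223 CPM for WT and 25.0 CPM for PKA tumor. In WT tumor most of that was Dcn in Mature Luminal cells (900 CPM of 901 CPM for the list there), and in Luminal Progenitor 1 cells the list summed to at most 18.3 CPM in any library. The part of these markers in the results was not tested. The summed level of 10 immune genes was 5.85 to 18.7 CPM, and Adipoq and Cidec, which define adipocytes, were at 0 in all 4 libraries. The libraries shared 16 to 24 annotated barcodes pairwise.

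Together the 8 genes made up 1.60% of UMIs in WT and 1.74% in PKA hyperplasia, and 2.43% of those in WT and 2.95% in PKA tumor. Csn3 alone gave 80.3%, 82.0%, 96.6% and 88.2% of these UMIs in the same order, and Lalba gave 10.4%, 16.4%, 2.67% and 11.4%. The other 6 genes summed to 1479, 284, 190 and 98.9 CPM. Among these 8 genes, kappa casein and alpha-lactalbumin thus held most of the UMIs in each library, and beta casein, the alpha caseins, Wap and Glycam1 held the rest.

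**Figure D1:**
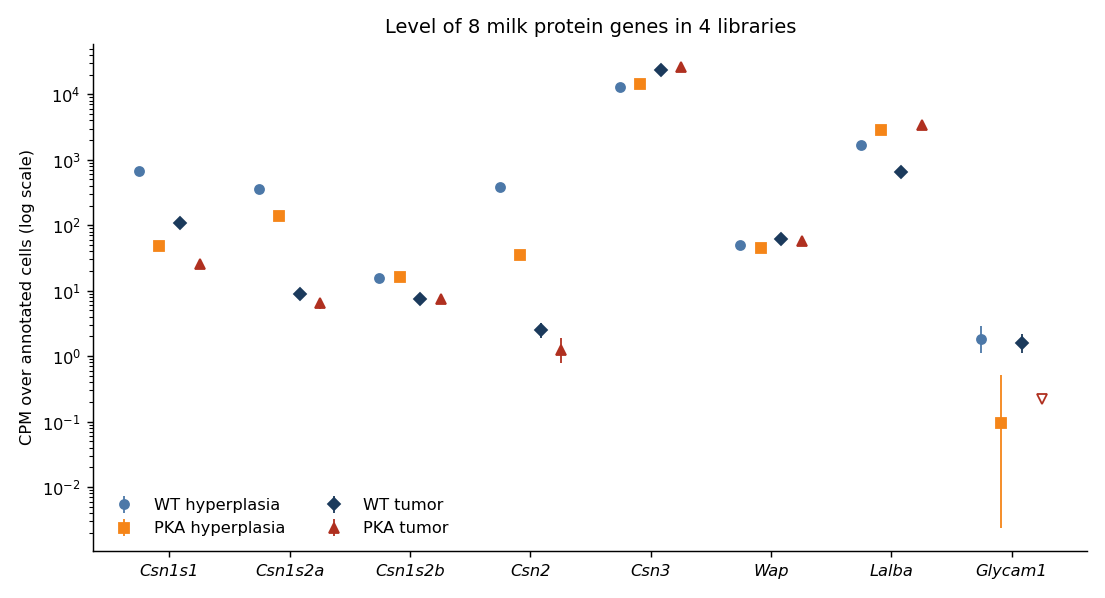
CPM over annotated cells of each of the 8 genes (log axis) in the 4 libraries, 1 point per library with its exact 95% Poisson interval; the open triangle is the upper limit of Glycam1 in PKA tumor, where it had no UMI. Csn1s1 and Csn2 were highest in WT hyperplasia, at 663 and 389 CPM, whereas Csn3 was highest in PKA tumor at 26039 CPM.

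In hyperplasia Csn1s1, Csn2, Csn1s2a and the rarely counted Glycam1 were lower in the PKA than in the WT library, while Csn3, Csn1s2b and Wap were close and Lalba was moderately higher with PKA. Csn1s1 stood at 663 CPM (647 to 678) in WT and 48.8 CPM (44.7 to 53.2) in PKA hyperplasia, a 13.6-fold difference with a log2 ratio of -3.76 (-3.89 to -3.63). Csn2 stood at 389 CPM (377 to 401) and 34.8 CPM (31.4 to 38.6), 11.2-fold lower with PKA (log2 ratio -3.48). The size of this Csn2 ratio depends on the cells used, and under the alternatives it ranged from -5.55 to -2.69. Barcodes without an annotation, left out here, held 1620 Csn2 UMIs in WT and 518 in PKA hyperplasia, beside 4197 and 371 in annotated cells. Csn1s2a stood at 360 CPM (349 to 371) and 139 CPM (132 to 146), a log2 ratio of -1.38 (-1.46 to -1.29). None of these 3 pairs of intervals overlapped, but they hold counting error only. The intervals of Csn3 did not overlap either, at a 1.11-fold difference. The third alpha casein gene, Csn1s2b, had 15.5 CPM (13.2 to 18.0) in WT and 16.3 CPM (14.0 to 19.0) in PKA hyperplasia, and the intervals overlapped. Thus members of 1 cluster, and even both Csn1s2 paralogs, did not share 1 ratio. The Csn1s2b counts were scattered, however, with 167 UMIs in 145 WT cells and 174 UMIs in 159 PKA hyperplasia cells. The part of RNA released from other cells in them was not tested. Glycam1 had 20 UMIs in WT and 1 in PKA hyperplasia, which gives a log2 ratio of -4.30 with a wide interval (-9.67 to -1.66).

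Csn3 was 12822 CPM for WT and 14255 CPM for PKA hyperplasia, a log2 ratio of 0.15 (0.14 to 0.16). The interval is narrow because it counts 138446 and 151787 UMIs and holds no spread between animals. Wap was 50.6 CPM (46.4 to 55.0) in WT and 45.5 CPM (41.5 to 49.7) in PKA hyperplasia, with overlapping intervals and a log2 ratio of -0.15 (-0.33 to 0.03). Lalba was 1667 CPM (1643 to 1691) in WT and 2842 CPM (2810 to 2874) in PKA hyperplasia, 1.71-fold higher with PKA (log2 ratio 0.77). The whey gene of lactose synthesis and the beta and alpha-S1 caseins thus differed in opposite directions. Of the 8 members, 4 (Csn1s1, Csn1s2a, Csn2 and Glycam1) were at least 2-fold lower in PKA hyperplasia and 0 were at least 2-fold higher. Among all 16671 genes with at least 10 UMIs over both libraries, 4.28% were at least 2-fold lower and 4.72% at least 2-fold higher. The members' median log2 ratio was -0.77 and that of all genes 0.01.

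In tumors the order of Csn1s1 was the same as in hyperplasia, whereas Lalba differed more. Csn1s1 was 108 CPM (104 to 112) in WT and 25.8 CPM (23.4 to 28.3) in PKA tumor, 4.19-fold lower with PKA (log2 ratio -2.07, -2.22 to -1.92). Lalba was 647 CPM (637 to 657) in WT and 3373 CPM (3345 to 3401) in PKA tumor, a log2 ratio of 2.38 (2.36 to 2.41). Csn3 was 23431 CPM for WT and 26039 CPM for PKA tumor, with the same log2 ratio of 0.15 over all cells as in hyperplasia. Within Luminal Progenitor 1 cells, however, the Csn3 ratio was 0.21 in hyperplasia and -0.36 in tumor. Wap was 61.5 CPM (58.4 to 64.7) in WT and 57.9 CPM (54.3 to 61.6) in PKA tumor, and its intervals overlapped at this stage too. Csn1s2b was 7.51 CPM (6.46 to 8.68) and 7.58 CPM (6.32 to 9.02), again overlapping.

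Csn2 and Csn1s2a were rare in tumors and their ratios rest on few cells. Csn2 had 61 UMIs in 5 WT tumor cells, 48 of them in 1 cell, and 21 UMIs in 2 PKA tumor cells, so its log2 ratio of -0.99 (-1.78 to -0.25) compares a handful of cells. Csn1s2a was 8.86 CPM (7.72 to 10.1) in WT and 6.44 CPM (5.29 to 7.78) in PKA tumor, a log2 ratio of -0.46. Its 217 WT UMIs came from 56 cells, 66 and 42 of them from 2 cells, whereas its 108 PKA UMIs came from 87 cells with at most 5 each. Without the 10 cells with most Csn1s2a UMIs in each library the log2 ratio was 1.25, higher with PKA, and within Luminal Progenitor 1 cells it was 1.22. Glycam1 had 39 UMIs in WT and 0 in PKA tumor, at least 8.89-fold lower with PKA when 3 UMIs are taken as the floor of that library. Of the 8 members, 1 (Lalba) was at least 2-fold higher in PKA tumor and 2 (Csn1s1 and Glycam1) at least 2-fold lower, beside 9.52% and 7.92% of the 20146 genes measured. The median log2 ratio was -0.27 for members and -0.02 for all genes.

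**Figure D2:**
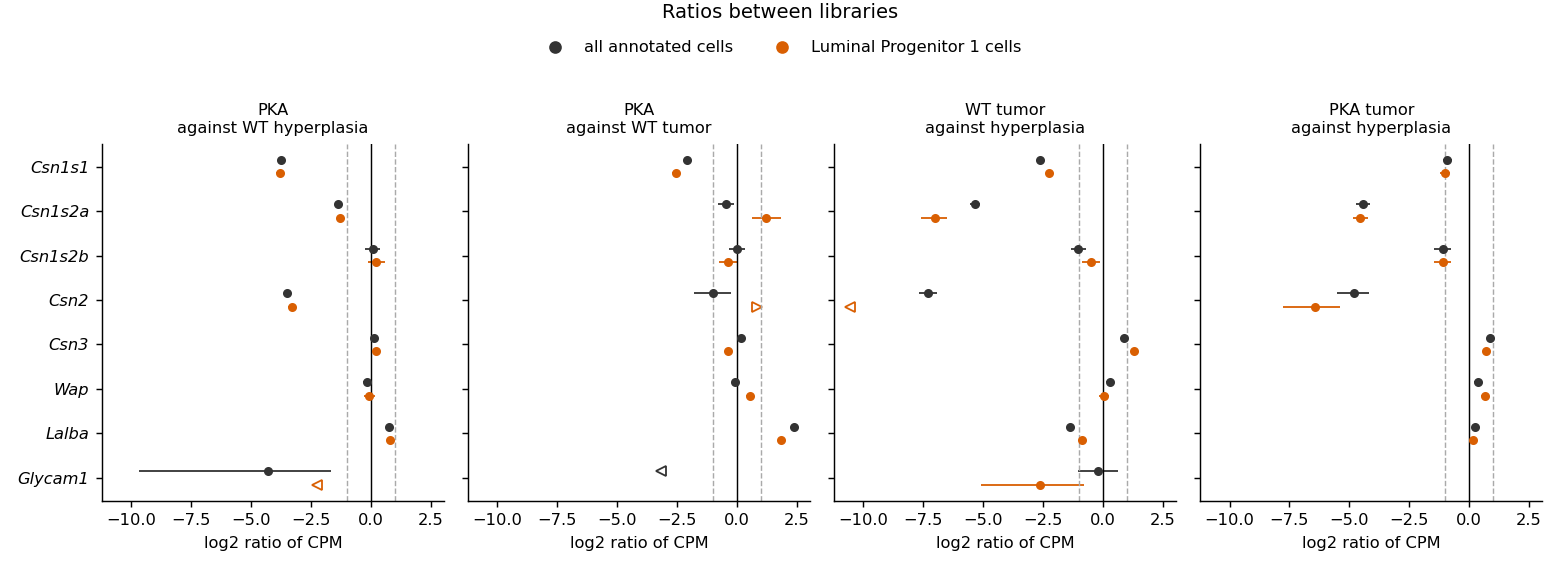
Log2 ratio of CPM (x axis) of each gene between the 2 libraries of each of the 4 comparisons, over all annotated cells (black) and Luminal Progenitor 1 cells (orange), with exact 95% conditional binomial intervals; open triangles are bounds against a floor of 3 UMIs, no mark is drawn where neither library exceeded 3 UMIs, and dashed lines mark 2-fold. Csn1s1 lay left of 0 in all 4 panels, and Csn1s2a in PKA against WT tumor lay at -0.46 in all cells but 1.22 in Luminal Progenitor 1 cells.

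Between stages Csn2 and Csn1s2a were over 20-fold lower in tumor in both genotypes, Csn1s1 and Csn1s2b less so, and Csn3 and Wap were higher, while Lalba went opposite ways in the genotypes. Csn2 was 389 CPM for WT hyperplasia and 2.49 CPM (1.90 to 3.20) in WT tumor, 156-fold lower, and 34.8 CPM for PKA hyperplasia and 1.25 CPM (0.776 to 1.92) in PKA tumor, 27.8-fold lower. Csn1s2a was 40.6-fold lower in WT tumor than in WT hyperplasia (log2 ratio -5.34) and 21.5-fold lower in PKA tumor than in PKA hyperplasia (-4.43). Both tumor libraries were thus below both hyperplasia libraries for these 2 genes. Csn1s2b was 2.06-fold lower in tumor within WT (log2 ratio -1.04, -1.35 to -0.73) and 2.16-fold lower within PKA (-1.11, -1.45 to -0.77). Csn1s1 was 6.13-fold lower in tumor within WT (log2 ratio -2.62) and 1.89-fold lower within PKA (-0.92, -1.11 to -0.73). Within Luminal Progenitor 1 cells its PKA value was -1.02 (2.02-fold), which would make 4 members at least 2-fold lower within PKA in place of 3. Its level was ordered WT hyperplasia, WT tumor, PKA hyperplasia, PKA tumor, so WT tumor exceeded PKA hyperplasia.

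Csn3 was 1.83-fold higher in tumor within WT and within PKA, with log2 ratios of 0.87 in each. Wap was 0.28 (0.14 to 0.43) higher on the log2 scale in tumor within WT and 0.35 (0.19 to 0.51) higher within PKA. Lalba was lower in tumor within WT, with a log2 ratio of -1.37 (-1.40 to -1.33), and slightly higher within PKA, at 0.25 (0.23 to 0.27). Glycam1 within WT had 20 UMIs in hyperplasia and 39 in tumor, a log2 ratio of -0.22 whose interval spans 0 (-1.03 to 0.64). Whether the stage differences of the genotypes differ could not be tested with these libraries. Within WT, 5 of the 8 members (Csn1s1, Csn1s2a, Csn1s2b, Csn2 and Lalba) were at least 2-fold lower in tumor and 0 at least 2-fold higher, beside 10.6% and 28.7% of 19402 genes. Of these 5, Csn1s2b stayed past 2-fold in 5 of 11 alternatives and Lalba in 8 of 11, and within Luminal Progenitor 1 cells they stood at -0.50 and -0.86. Within PKA, 3 of 7 measured members (Csn1s2a, Csn1s2b and Csn2) were at least 2-fold lower and 0 at least 2-fold higher, beside 10.4% and 28.5% of 18755 genes. All genes had median log2 ratios of 0.37 within WT and 0.30 within PKA in this direction, and the members -1.20 and -0.92.

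By class of cells in the authors' annotation, Csn3, Lalba and Csn1s1 were higher in Luminal Progenitor 1 than in Mature Luminal cells in each library, and in tumors Csn3 and Lalba were highest in the class labelled EMT-like. In WT tumor, Csn1s2a, Csn2, Wap and Glycam1 had most of their UMIs in Lumino-Basal cells instead. Lalba was itself one of the 3 marker genes, with Cd14 and Kit, that the authors used to name Luminal Progenitor cells, so its level by class describes that naming. Luminal Progenitor 1 was the class with most cells in each library, at 2157 to 2885 cells. Csn3 in this class was 14876 CPM for WT hyperplasia, 17218 CPM for PKA hyperplasia, 35896 CPM for WT tumor and 27970 CPM for PKA tumor. In Mature Luminal cells, the hormone-receptor-positive class, it was 893, 780, 1432 and 1646 CPM in that order. Cells labelled EMT-like had 52616 CPM of Csn3 in WT and 42614 CPM for PKA tumor, the highest class level of any member. Within the Luminal Progenitor 1, Lumino-Basal and EMT-like classes Csn3 was lower in PKA than in WT tumor. The gap was largest in Lumino-Basal cells, at 2253 against 9229 CPM (log2 ratio -2.03), with only 66 such cells in PKA tumor. In Mature Luminal cells Csn3 was higher with PKA (log2 ratio 0.20), and over all cells it was 1.11-fold higher. The label EMT-like is the authors' own, given from Trim29, Vim, Cldn6 and Sox4. The summed level of these 4 genes was lowest in that class in each tumor library. Sox4 made up most of it there, 244 of 255 CPM in WT and 340 of 365 CPM in PKA tumor, so the sum mainly ranks Sox4. Whether the label holds was not tested. The 4 markers summed to 255 CPM in that class of WT tumor, with Trim29 and Cldn6 at 0, against 709 CPM in Luminal Progenitor 1, 1343 CPM in Lumino-Basal and 573 CPM in Mature Luminal cells. In PKA tumor they summed to 365 CPM there, again with Trim29 and Cldn6 at 0, and to 819, 1389 and 1476 CPM in the same other classes.

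Lalba in Luminal Progenitor 1 cells was 1803 CPM for WT hyperplasia, 3165 CPM for PKA hyperplasia, 994 CPM for WT tumor and 3526 CPM for PKA tumor. Cells labelled EMT-like stood at 1607 CPM (1558 to 1658) in WT and 6911 CPM (6756 to 7070) in PKA tumor. Lumino-Basal cells, named from Krt14, Krt8 and Cd14, were close to each other at 204 CPM (193 to 215) in WT and 178 CPM (140 to 224) in PKA tumor. Mature Luminal cells stood at 25.0 CPM and 133 CPM. The PKA library was thus the higher in 3 of the 4 tumor classes, and the intervals overlapped in Lumino-Basal cells. Basal cells had 44.8 CPM of Lalba in WT and 598 CPM for PKA hyperplasia, but 162 of the 307 UMIs in the PKA class came from 1 cell. The Basal class also held fibroblast markers, with 6 genes summing to 1639 CPM for WT and 807 CPM for PKA hyperplasia, and their part in these levels was not tested.

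The UMIs of Csn3 per UMI of Lalba set both major members against each other within a class, free of the library total. Over all cells it was 7.69 in WT and 5.02 in PKA hyperplasia, then 36.2 in WT and 7.72 in PKA tumor. In Luminal Progenitor 1 cells it was 8.25, 5.44, 36.1 and 7.93, and in Mature Luminal cells 9.80, 4.49, 57.3 and 12.4. WT tumor was the highest of the 4 libraries in each of these 3 sums. The highest value of any class was that of Basal cells of WT hyperplasia, at 98.5 (62.1 to 167), where only 18 Lalba UMIs were counted, against 4.66 in Basal cells of PKA hyperplasia.

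Csn1s1 in Luminal Progenitor 1 cells was 768 CPM for WT hyperplasia, 55.1 CPM for PKA hyperplasia, 159 CPM for WT tumor and 27.3 CPM for PKA tumor, the same order as over all cells. In Luminal Progenitor 2 cells, a class of hyperplasia, Csn1s1 was 478 CPM for WT and 47.6 CPM for PKA, and in Basal cells 162 and 15.6 CPM. The lower level of Csn1s1 in PKA hyperplasia was therefore present in every class, Mature Luminal cells included (62.5 against 6.58 CPM). The Mature Luminal values rest on only 24 and 5 UMIs, and the Basal values on 65 and 8. The part of RNA released from other cells in these 2 classes was not tested. Csn2 in Luminal Progenitor 2 cells was 347 CPM for WT and 5.29 CPM for PKA hyperplasia, and in Luminal Progenitor 1 cells 436 and 44.3 CPM. In WT tumor all 61 Csn2 UMIs lay in Lumino-Basal cells, 48 of them in 1 cell. So did 144 of 217 Csn1s2a UMIs (66.4%), at 21.6 CPM (18.2 to 25.4) against 2.95 CPM (2.01 to 4.19) in Luminal Progenitor 1 cells. Of those 144 UMIs, 66 came from 1 cell and 42 from another, so the class level rests largely on these cells. Luminal Progenitor 1 cells of WT tumor had no Csn2 UMI, at least 1525-fold below the same class of WT hyperplasia when 3 UMIs are the floor.

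In hyperplasia Wap was higher in Luminal Progenitor 2 than in Luminal Progenitor 1 cells, at 93.6 (81.1 to 107) against 43.8 CPM (39.3 to 48.7) in WT and 103 (86.2 to 122) against 42.0 CPM (37.6 to 46.7) in PKA. In WT tumor 908 of 1507 Wap UMIs (60.3%) lay in Lumino-Basal cells, at 136 CPM (127 to 145), against 45.1 CPM (41.1 to 49.3) in Luminal Progenitor 1 cells. Lumino-Basal cells of PKA tumor, only 66 in number, had no Wap UMI, at least 18.6-fold lower. In that library Luminal Progenitor 1 cells had 914 of 970 UMIs, at 66.1 CPM (61.9 to 70.5). Similar Wap levels in the tumors, 61.5 and 57.9 CPM, thus came from different classes. The fibroblast markers summed to 117 CPM in the Lumino-Basal class of WT tumor and 737 CPM in that of PKA tumor, and their part was not tested. Glycam1 was likewise in Lumino-Basal cells of WT tumor, with 35 of its 39 UMIs there and 15 in 1 cell.

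**Figure D3:**
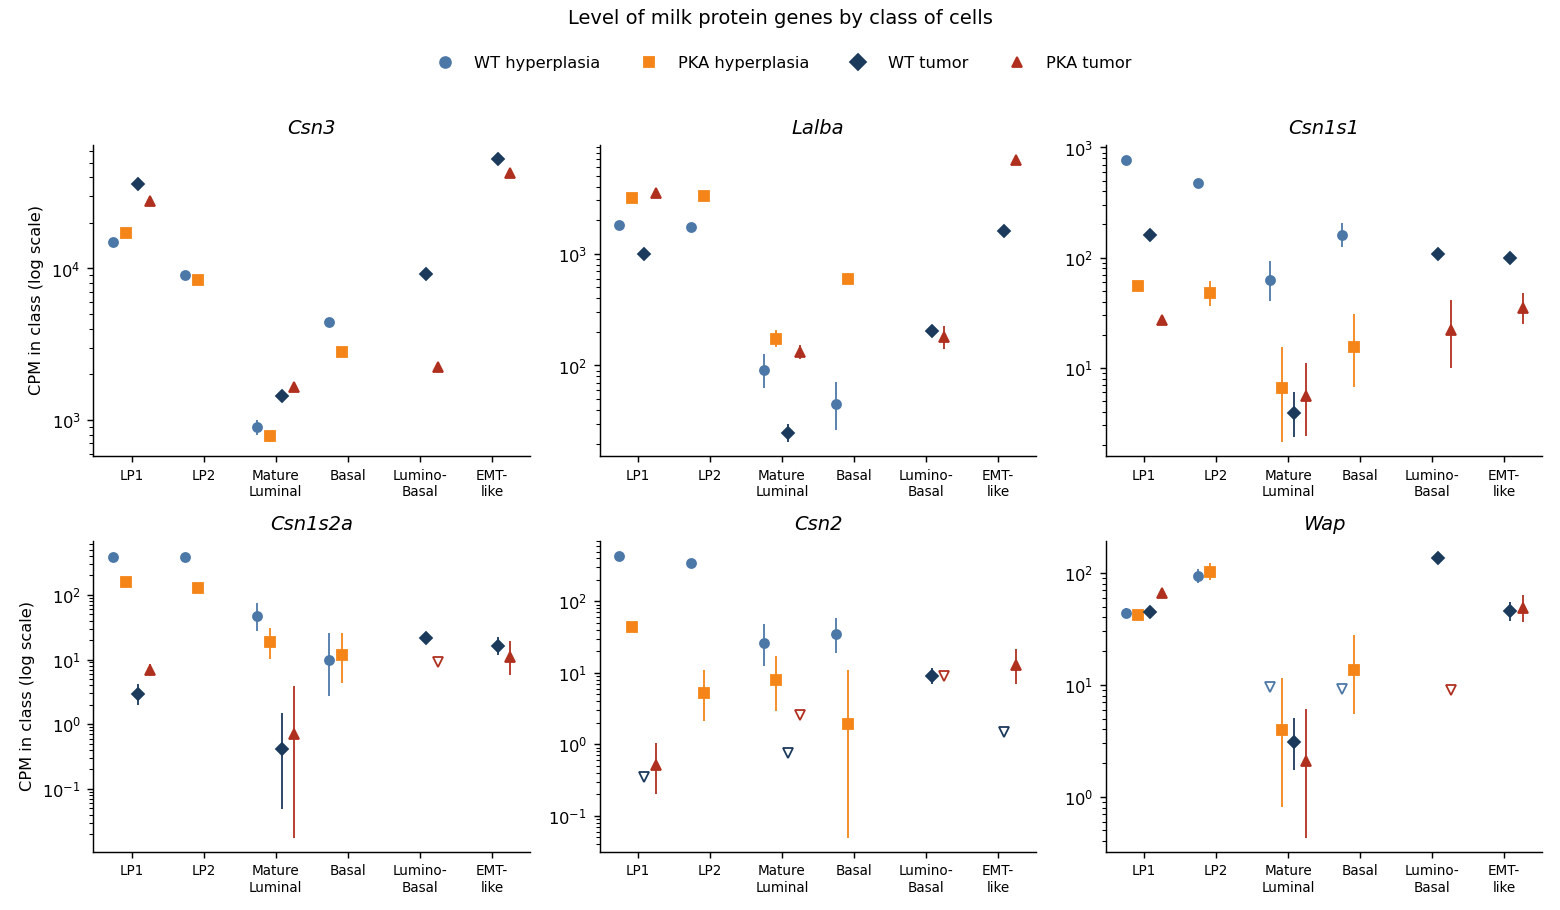
CPM (log axes, scaled per gene) of 6 genes in each class of cells by library, with exact 95% Poisson intervals; LP1 and LP2 are Luminal Progenitor 1 and 2, and open triangles are upper limits where a class had no UMI. Csn1s1 in hyperplasia was lower with PKA in every class, and Wap in Lumino-Basal cells was 136 CPM for WT tumor and not detected in PKA tumor.

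The members differed in how evenly cells held them. The 1% of cells with most Csn3 held 7.31% of its UMIs in WT and 6.37% in PKA hyperplasia, and 5.15% of those in WT and 4.55% in PKA tumor. For Csn2 the same share was 72.9%, 93.5%, 100% and 100%. Csn3 was thus spread widely and Csn2 sat in a few cells in each library. In WT hyperplasia 15 cells held at least 50% of all Csn2 UMIs, 20 cells those of Csn1s2a, 93 cells those of Csn1s1 and 616 cells those of Csn3. In PKA hyperplasia the numbers were 5, 22, 19 and 677 cells. The Csn2 level of a library thus rests mostly on a few high cells, a spread that counting intervals do not hold.

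**Figure D4:**
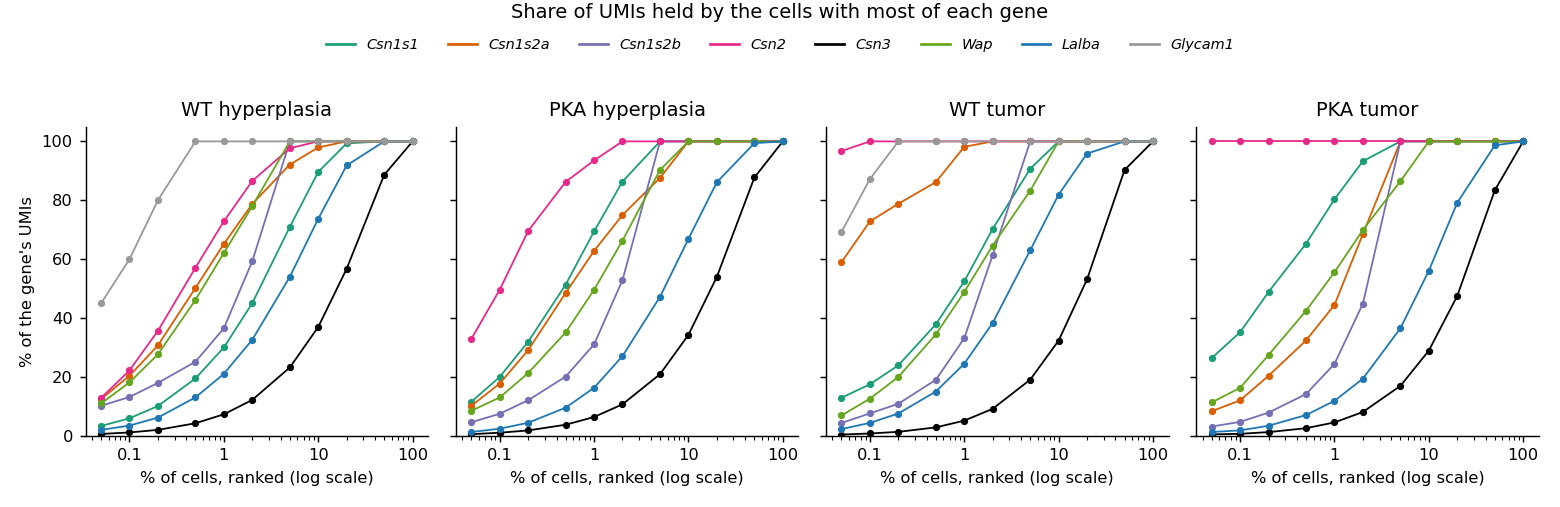
Share of a gene's UMIs (y axis, %) held by the given share of cells (x axis, %, log scale), with cells ranked from most to fewest UMIs of that gene, 1 line per gene and 1 panel per library; genes with under 20 UMIs are left out. The Csn3 line lies lowest in each panel, with 7.31% of UMIs in the top 1% of WT hyperplasia cells, and the Csn2 line reaches 72.9% there.

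The high cells tended to hold several caseins at once. The cell with most Csn2 in WT hyperplasia had 275 Csn2, 145 Csn1s2a and 186 Csn3 UMIs, and the 8 genes made up 15.3% of its 4219 UMIs. The cell with most Csn1s2a had 309 of its UMIs and 216 of Csn2. Of the 124 WT hyperplasia cells with at least 5 Csn2 UMIs, 66.9% had at least 5 of Csn1s1, against 9.45% of all cells, and 29.8% had at least 5 of Csn1s2a, against 3.36%. Their median depth was 3508 UMIs, above the library's 2637.5, and the part of depth was not tested. Conversely 23.1% of the 360 Csn1s1 cells had at least 5 Csn2 UMIs, so Csn1s1 was found in many cells without Csn2. In PKA hyperplasia 15 cells had at least 5 Csn2 UMIs, of which 9 had as many of Csn1s2a, 13 of Lalba and 3 of Csn1s1. In WT tumor 74 cells had at least 5 Wap UMIs, of which 12 had as many of Csn1s1 and 0 of Csn2.

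Cells with at least 1% of their UMIs from the 8 genes numbered 2003 (52.6%) in WT and 2307 (60.4%) in PKA hyperplasia, then 3268 (63.1%) in WT and 2146 (81.3%) in PKA tumor, mostly through Csn3. From the 6 genes other than Csn3 and Lalba, a set chosen after the data were seen, such cells numbered 119 (3.12%, 2.60 to 3.73), 14 (0.367%, 0.201 to 0.614), 4 (0.0772%) and 3 (0.114%). The WT hyperplasia library thus held most of the cells rich in alpha and beta casein. In that library 64 cells lay near the threshold, a count that is not limited to the 119 above it. They are cells above a threshold, and whether they form a separate group was not tested. The 95 of them in Luminal Progenitor 1, set beside the 2627 other cells of that class, had more Lalba (4365 against 1698 CPM) and Csn3 (26332 against 14404 CPM), the members that did not pick them. By the highest ratio of CPM with 10 added, their leading genes outside the members were Lao1 (142 against 8.49 CPM), a milk L-amino acid oxidase, Saa2 (5352 against 1353 CPM), Cck, Lipa and Col9a1. Btn1a1, a milk fat globule protein, was 325 against 143 CPM and Elf5 431 against 243 CPM, while Prlr was 41.8 against 49.9 CPM. These cells were picked by the other 6 members, so these values are descriptions.

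The share of cells with a UMI was compared after thinning each cell to 2000 UMIs, which left out 1090, 1148, 428 and 187 shallower cells. Shares are listed with the hyperplasia libraries first and WT before PKA. Csn3 was found in 92.2%, 92.7%, 86.6% and 95.8% of cells (unthinned 92.0%, 93.5%, 93.8% and 98.9%). Lalba was found in 38.4% (36.5 to 40.2), 52.9% (51.0 to 54.8), 23.9% (22.7 to 25.2) and 58.9% (56.9 to 60.8) (unthinned 39.9%, 54.8%, 31.0% and 70.1%). Csn1s1 was found in 20.5% (19.0 to 22.0), 3.26% (2.62 to 4.00), 6.35% (5.68 to 7.09) and 1.88% (1.38 to 2.50) (unthinned 21.3%, 3.88%, 9.23% and 3.11%). For Lalba and Csn1s1 the order of the shares was that of the CPM, so more or fewer cells with a UMI went with the level, whereas for Csn3 it was not and no order is read from its shares. Free RNA can put UMIs into cells that do not express a gene, and Mature Luminal cells, the class lowest in Csn3, serve as a guide to it. They had Csn3 in 33.0%, 53.4%, 52.0% and 58.7% of thinned cells, Lalba in 7.95%, 14.9%, 3.08% and 9.30%, and Csn1s1 in 6.82%, 1.15%, 0.592% and 1.16%. The Mature Luminal median depths were 3177.5, 3051, 5492 and 8362 UMIs. The Csn1s1 shares of all PKA hyperplasia and PKA tumor cells lay inside the wide Mature Luminal intervals (0.140 to 4.09 and 0.141 to 4.14), so neither share could be told from that background. By level they did differ. Csn1s1 was 55.1 CPM in Luminal Progenitor 1 against 6.58 CPM in Mature Luminal cells of PKA hyperplasia, and 27.3 against 5.59 CPM in PKA tumor.

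Csn2 was found in 7.36% (6.40 to 8.40) of thinned WT hyperplasia cells and 1.61% (1.17 to 2.16) of thinned PKA hyperplasia cells, with Mature Luminal shares of 3.41% (0.709 to 9.64) and 1.15% (0.140 to 4.09). The unthinned shares were 7.59% and 1.65%, and in tumors Csn2 was found in 0.0842% and 0.0816% of thinned cells. The shares in Mature Luminal cells were too imprecise to separate from those of all cells in hyperplasia. Csn1s2a was found in 11.0% (9.85 to 12.2) and 8.99% (7.93 to 10.1) of thinned WT and PKA hyperplasia cells (unthinned 12.1% and 9.80%), against 3.41% (0.709 to 9.64) and 3.45% (1.28 to 7.35) of Mature Luminal cells. The 2.60-fold gap in its CPM in hyperplasia thus went with a small gap in the share of cells. Wap was found in 4.30%, 5.24%, 5.58% and 4.73% of thinned cells over the 4 libraries (unthinned 4.99%, 6.23%, 9.88% and 9.97%), against 0%, 0.575%, 0.237% and 0% of Mature Luminal cells, where the count of 0 allows up to 3.41% in WT hyperplasia and 1.74% in PKA tumor.

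Of the genes upstream of milk transcription, the 14 of the prolactin and STAT5 list were all measured in each comparison. In hyperplasia 1 of 14, the receptor gene Prlr, was at least 2-fold higher with PKA (343 against 144 CPM, log2 ratio 1.25, 1.16 to 1.33) and 0 were lower, beside 4.72% and 4.28% of all genes. Prlr was mostly in Mature Luminal cells, at 2580 CPM for WT and 3695 CPM for PKA hyperplasia, against 49.5 and 85.7 CPM in Luminal Progenitor 1 cells. Stat5a was 42.0 CPM for WT hyperplasia, 45.9 CPM for PKA hyperplasia, 68.9 CPM for WT tumor and 48.0 CPM for PKA tumor, and Elf5 lay between 214 and 275 CPM in the 4 libraries. Neither of these transcription factor genes was 2-fold apart in any comparison, in contrast to Csn1s1 and Csn2. In tumors 0 of 14 were past 2-fold between PKA and WT, beside 9.52% higher and 7.92% lower of all genes. Between stages within WT, 6 of 14 were higher in tumor (Prlr, Ghr, Cebpb, Id2, Socs1 and Socs3) and 2 lower, Cish (log2 ratio -1.50) and Socs2 (-1.11), beside 28.7% and 10.6% of all genes. Within PKA 5 were higher and 0 lower, beside 28.5% and 10.4%. The list's medians were 0.16, 0.12, 0.77 and 0.09 in the order PKA against WT in hyperplasia and in tumor, then tumor against hyperplasia in WT and in PKA, and those of all genes were 0.01, -0.02, 0.37 and 0.30.

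Of 16 other milk proteins, 3 were higher and 1 lower with PKA in hyperplasia (all genes 4.72% and 4.28%), including Ltf, lactoferrin (log2 ratio 1.40), and Spp1, osteopontin (1.04). In tumors 2 were higher, Pigr (1.05), which carries antibodies into milk, and Wfdc18 (1.25), which like Wap has a four-disulfide core domain, and 1 was lower, the casein kinase gene Fam20c (-3.09), beside 9.52% and 7.92% of all genes. Between stages 2 were higher and 3 lower in tumor within each genotype, where 28.7% and 10.6% of all genes were in WT and 28.5% and 10.4% in PKA. Btn1a1, butyrophilin, was 122 CPM for WT hyperplasia, 68.7 CPM for PKA hyperplasia, 10.6 CPM for WT tumor and 19.9 CPM for PKA tumor, the same order between stages as Csn2 and Csn1s2a.

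For lactose synthesis, 0 of 8 measured genes were past 2-fold between PKA and WT hyperplasia (all genes 4.72% higher and 4.28% lower), where Lalba was 1.71-fold higher. B4galt1, the catalytic partner of alpha-lactalbumin, was 719 CPM for WT and 667 CPM for PKA hyperplasia, and 268 CPM for WT and 309 CPM for PKA tumor. It was lower in tumor in both genotypes (log2 ratios -1.42 and -1.11), as were the glucose transporter Slc2a1 (-2.34 and -1.87) and the hexokinase Hk2 (-2.13 and -1.81), which made 3 of 8 and 3 of 9 measured genes lower, with 1 higher in each. Of all genes 10.6% and 10.4% were lower and 28.7% and 28.5% higher in these comparisons. In tumors 1 of 9 was higher and 1 lower with PKA, beside 9.52% and 7.92% of all genes. Of the milk lipid list, 1 of 15 was higher and 2 lower with PKA in hyperplasia, and 0 of 15 higher and 3 lower in tumor, among them Thrsp (-2.16), a regulator of lipogenesis. Between stages 4 of 16 were higher and 2 lower in WT, and 2 of 14 higher and 3 lower in PKA, beside the same shares of all genes.

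The other genes within 250 kb of the casein cluster were mostly low, with 4 to 7 of 16 measured. In hyperplasia 2 of 4 were higher with PKA and 0 lower (all genes 4.72% and 4.28%), and Smr2, a salivary protein gene at the Csn3 end, was 37.8 CPM for PKA and 5.37 CPM for WT (log2 ratio 2.82, 2.42 to 3.24). It thus differed in the opposite direction to Csn1s1 and Csn2. In tumors 1 of 7 was higher and 1 lower with PKA (all genes 9.52% and 7.92%). Between stages 2 of 7 were higher and 3 lower in WT (all genes 28.7% and 10.6%) and 1 of 5 higher and 2 lower in PKA (28.5% and 10.4%).

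Likeness of pattern was described over 16 sums, 1 per class and library, as Pearson's r of log2(CPM + 10) among 5972 genes. Sums of a library share its preparation and depth, so r carries no test. Csn1s2a (r = 0.86), Btn1a1 (0.83) and Mapkapk3 (0.79) were most like Csn2. Acss1 (0.93), Acsl1 (0.93) and Cinp (0.90) were most like Wap, and Clic6, Wls and Dbi (0.90 each) most like Lalba. Among the members themselves Csn1s2a with Csn2 was highest, followed by Csn3 with Lalba (0.79), Csn1s1 with Csn2 (0.77) and Wap with Lalba (0.76). Csn2 with Csn3 was 0.11, although both are caseins of the same cluster.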

How the data were processed

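Single-cell RNA was measured in 4 libraries (10x Chromium 3′ v2), grouped by sample title. The deposited files hold raw UMI counts by gene for each barcode. Tools in the submitters' processing notes are STAR 2.5.3a, Cell Ranger and, from Subread 1.6.0, featureCounts, with the GRCm38/mm10 build. The sources used here do not give the annotation release. Tables of the authors gave each cell's class, per the series design from Monocle2, and the fraction of mitochondrial counts, which was used in 1 alternative. UMIs were summed over annotated cells per library or class and divided by the total. Doublets were not removed. Intervals were exact Poisson, conditional binomial (ratios) and Clopper-Pearson (shares). Genes with at least 10 UMIs over both libraries were measured, and at least 2-fold counted as past the threshold. The members, gene lists, tests and alternatives were chosen with earlier results of these data known. Text names all 8 members, listed genes, the 3 genes most similar to Csn2, Wap and Lalba, and the 5 genes leading in rich cells. The background share of cells with a UMI was to come from barcodes with at least 3 of 10 immune markers. These numbered only 5 to 10 per library, so Mature Luminal cells were used. Most of the immune-marker barcodes were themselves annotated cells (5 of 7, 8 of 10, 5 of 6 and 3 of 5). They held Csn3 at 10747, 10156, 7727 and 41022 CPM, above its Mature Luminal level in each library. Interval coverage was checked on simulated data drawn with counting error alone. That check only covers the calculation and does not address spread between cells or mice. Work used pandas 2.3.3, SciPy 1.17.1, NumPy 2.4.6 and matplotlib 3.10.9 under Python 3.11.15, with TMM factors from edgeR 4.0.16 in R 4.3.3.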

Additional observations from a re-analysis of the deposited data

Results flagged for a closer look

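Lalba had a log2 ratio of tumor to hyperplasia of -1.37 in WT and 0.25 in PKA, that is, opposite directions in the genotypes. The difference was not tested, since each side is 1 library against 1 library.

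Barcodes without an annotation, which entered no comparison, numbered 1371 in WT and 1040 in PKA hyperplasia, then 619 in WT and 296 in PKA tumor, with median depths of 411 to 786.5 UMIs. Several members were more than 2-fold above the annotated cells there, with intervals apart. In WT hyperplasia these were Csn1s2a at 959 CPM, Csn2 at 1312 CPM and Wap at 174 CPM. In PKA hyperplasia they were Csn1s1 at 136 CPM, Csn1s2a at 434 CPM, Csn1s2b at 54.9 CPM, Csn2 at 438 CPM and Wap at 345 CPM. In WT tumor Wap stood at 255 CPM, and in PKA tumor Csn1s1 at 102 CPM. Csn2 and Csn1s2a were higher in WT than in PKA hyperplasia in these barcodes too, but by less than in annotated cells.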

How the results depend on the processing

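Of 15 member ratios past 2-fold, 15 kept their direction and 12 stayed past 2-fold under every alternative that gave a value. The exceptions were Csn1s2b between stages (log2 ratios of -1.25 to -0.50 in WT and -1.43 to -0.98 in PKA) and Lalba between stages in WT (-1.57 to -0.38). Glycam1 in PKA against WT, counted among the 12, gave a value in only 9 of 11 alternatives in hyperplasia and 8 of 11 in tumor. Csn1s1 in PKA against WT ranged from -4.96 to -3.56 in hyperplasia and -3.34 to -1.70 in tumor, Csn2 in hyperplasia from -5.55 to -2.69, and Lalba in tumor from 1.83 to 2.61. In PKA against WT tumor, 2 members in place of 1 were higher and 1 in place of 2 lower without the 10 cells with most UMIs of a gene, in Luminal Progenitor 1 cells only, and without the 1% of cells with most UMIs, an alternative added after the data were seen. Csn1s2a then turned higher, and Glycam1 lost its call. Between stages in WT, 1 member (Csn3) in place of 0 was higher with the mean of CPM per cell, an unweighted mean over classes, Luminal Progenitor 1 cells only or the same class shares, and 3 in place of 5 were lower with the unweighted mean. That mean also made 1 member higher between stages in PKA. In Luminal Progenitor 1 cells 4 members in place of 3 were lower between stages in PKA, and 4 in place of 5 in WT. Of 57 measured listed genes, 7 were higher and 3 lower in PKA against WT hyperplasia, beside 4.72% and 4.28% of all genes. With at least 100 UMIs 1 was lower, and at 3-fold 2 were higher and 1 lower. In tumor 4 of 61 were higher, beside 9.52% of all genes: 2 with at least 100 UMIs, 9 with at least 1 UMI and 0 at 3-fold. Between stages 15 of 61 were higher in WT and 11 of 58 in PKA, beside 28.7% and 28.5% of all genes. At 3-fold these were 9 and 6. Shares of all genes were not computed under these alternatives. Of 3 lists of most similar genes, each changed in part with another added CPM. The cause of these shifts was not tested. No paired analysis was possible because each group had 1 library. Depth limits Glycam1 in each library, and Csn2 and Csn1s2a in tumors.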
